A study of Mus musculus with 4 samples.

Results

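The YAP target genes described here are 9 genes chosen by name from 22739 named genes: Cyr61, Ctgf, Tgfb2, Axl, Amotl1, Amotl2, Ptpn14, Nuak2 and Ankrd1. They were picked with their values in these libraries known, so the difference between the groups is described for them and carries no test. The RNA came from a line of mouse embryonic stem (ES) cells, CCE, of strain 129SV, kept on gelatin in serum with leukemia inhibitory factor. Tex10 was depleted with short hairpin RNA in 2 libraries (shTex10), and the 2 control libraries had a hairpin against luciferase (shLuci), a gene that mouse cells lack. The series title links Tex10 to super-enhancer control in pluripotency and reprogramming, and the design sets the transcripts of the depleted cells against those of the controls. The sources used here give neither the number of hairpins nor the time after their delivery, and effects of a hairpin other than through Tex10 cannot be told apart from those of Tex10 loss. YAP itself was not manipulated in this series, so the name of the group rests on what is known of these genes elsewhere.

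YAP and its relative TAZ (gene Wwtr1) are coactivators that bind no DNA themselves and act through the TEAD transcription factors. In the Hippo pathway the kinases encoded by Stk3 and Stk4 activate the LATS kinases, which phosphorylate YAP and TAZ and keep them out of the nucleus. Cell contact, cell shape and tension on the actin cytoskeleton feed into this pathway. In the early mouse embryo YAP is nuclear in the outer cells, which form trophectoderm, and largely cytoplasmic in the inner cells, from which ES cells are derived. Cyr61 and Ctgf are the targets most often used to read YAP activity, and Amotl2, Ptpn14 and Lats2 encode inhibitors of YAP that are themselves targets.

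TEAD factors recognise the letters GGAATG, read as CATTCC on the other strand, and the promoters of the 9 genes were searched for them. The genes are known as targets of YAP, which acts through TEAD, so the presence of the motif is not independent of their choice. RefSeq windows (build GRCm38.p6) from 250 bases before to 50 bases after the start were found for 7 of the 9 genes, and those of Ctgf and Nuak2 were not found. Of these 7 genes 5 hold the motif on either strand, and Tgfb2 and Amotl1 do not. The motif stands in 14.7% of all 32851 windows of this length. Among tested genes with a window it was found for 17.4% of the 1811 called higher in shTex10, 13.1% of the 2992 called lower and 13.9% of the 4498 not called. The matches are letters in a window, and binding was not measured. The 250 bases before the start are shown for Cyr61, the gene with the largest fold, and for Ankrd1, which holds the motif in 2 places. The motif is in capitals, and the first line is chr3:145649986-145650235 (minus strand) and the second chr19:36119845-36120094 (minus strand).
Cyr61: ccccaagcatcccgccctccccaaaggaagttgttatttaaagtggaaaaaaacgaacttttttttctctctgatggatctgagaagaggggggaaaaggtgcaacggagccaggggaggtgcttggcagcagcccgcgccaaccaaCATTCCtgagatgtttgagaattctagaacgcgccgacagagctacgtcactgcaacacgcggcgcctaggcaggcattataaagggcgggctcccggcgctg
Ankrd1: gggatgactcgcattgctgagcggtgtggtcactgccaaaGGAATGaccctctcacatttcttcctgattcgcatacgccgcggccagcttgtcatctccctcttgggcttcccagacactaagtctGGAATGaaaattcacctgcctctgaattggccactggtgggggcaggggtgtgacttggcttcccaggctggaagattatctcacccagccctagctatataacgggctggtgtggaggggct

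The other 3 promoters with the motif are shown by the bases around it only, up to 25 on each side, so that the motifs can be set side by side. The first is chr9:102717714-102717769 (plus strand), the second chr1:189728097-189728152 (plus strand) and the third chr7:25788936-25788983 (minus strand).
Amotl2: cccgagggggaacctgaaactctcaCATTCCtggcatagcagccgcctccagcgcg
Ptpn14: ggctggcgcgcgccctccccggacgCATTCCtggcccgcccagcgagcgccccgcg
Axl: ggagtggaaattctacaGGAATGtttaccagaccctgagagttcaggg
The motif's first base lay 103 bases before the start in Cyr61, 65 in Amotl2, 146 in Ptpn14 and 233 in Axl, and 210 and 123 bases before it in Ankrd1. The start here is that of the window, which was the RefSeq gene start for 60.4% of the windows checked. In Cyr61, Amotl2 and Ptpn14 it reads CATTCC on the gene's strand, each time followed by TG, and in Axl and Ankrd1 it reads GGAATG.

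The deposited values are FPKM, fragment counts scaled to transcript length and to the size of the library, which allows levels of different genes to be compared per length. Tex10 itself measured 77.3 and 82.1 FPKM in shLuci and 11.6 and 13.4 FPKM in shTex10, lower in both libraries labelled as depleted (limma, Benjamini-Hochberg adjusted p = 0.000143). Depth is not recorded in FPKM. A rough estimate from the smallest values of unnamed rows put the other 3 libraries at 83.4% to 94.0% of shLuci replicate 1, with only 5.04% to 11.4% of the row lengths at the ratio used. Summed FPKM over named genes was 613642 and 632067 in shLuci and lower, at 525878 and 537692, in shTex10. Differences below are in log2(FPKM + 1), shTex10 minus shLuci, which understates those of low genes. Of 11883 genes with a mean of at least 1 FPKM, limma with Benjamini-Hochberg adjustment called 2350 higher (19.8%) and 3779 lower (31.8%), and rescaling to the same named sum turned this to 3269 higher (27.4%) and 1901 lower (16.0%). Over all genes the median difference was -0.14 in the deposited values and 0.06 on the rescaled ones. The sum over all rows, unnamed ones included, differed even within shLuci (1403759 and 2224872 FPKM). Rescaling to this sum left 662 genes higher (5.55%) and 239 lower (2.00%). It ended 24 of the calls of the genes named by rule (listed under processing), which is not repeated at each. Calls of other genes given below were not followed one by one under this scaling, and the counts left in each list stand in the last section. The series design calls the libraries biological replicates without saying more of their origin, so the p-values set each difference only against the spread between these samples. That spread is estimated by limma partly from the other genes tested. The ES cell genes Pou5f1 and Nanog were expressed in both groups, and both were called lower in shTex10. Pou5f1 measured 938 and 848 FPKM in shLuci and 599.8 and 549 FPKM in shTex10 (limma, Benjamini-Hochberg adjusted p = 0.00454). Nanog measured 257 and 278 FPKM in shLuci and 165 and 174 FPKM in shTex10 (adjusted p = 0.00286 from limma).

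All 9 genes were higher in both shTex10 libraries than in both shLuci libraries, a separation seen in this direction for 28.3% of the genes tested. All 9 had a mean above 1 FPKM in shLuci, so none entered the tested set through its shTex10 values alone. The ratio of group means ran from 1.22 (Tgfb2) to 6.17 (Cyr61) with a median of 2.82, and 6 of the 9 were at least 2-fold higher, as were 8.67% of all genes. The median difference was 1.47, or 1.60 relative to the median of all genes. By limma with Benjamini-Hochberg adjustment 8 of the 9 were called, beside 51.6% of all genes in either direction. All 8 were higher (19.8% of all genes) and 0 lower (31.8%), and the gene not called was Tgfb2. After rescaling by named sum all 9 were called higher, Tgfb2 included, beside 27.4% of all genes. With the replicate number as a block all 9 were also called higher, beside 3210 of 11883 genes higher and 5709 lower. These counts describe genes chosen from this contrast, and nothing is read from them. In bulk RNA a larger share of cells with a transcript and more transcript per cell cannot be told apart.

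**Figure D1:**
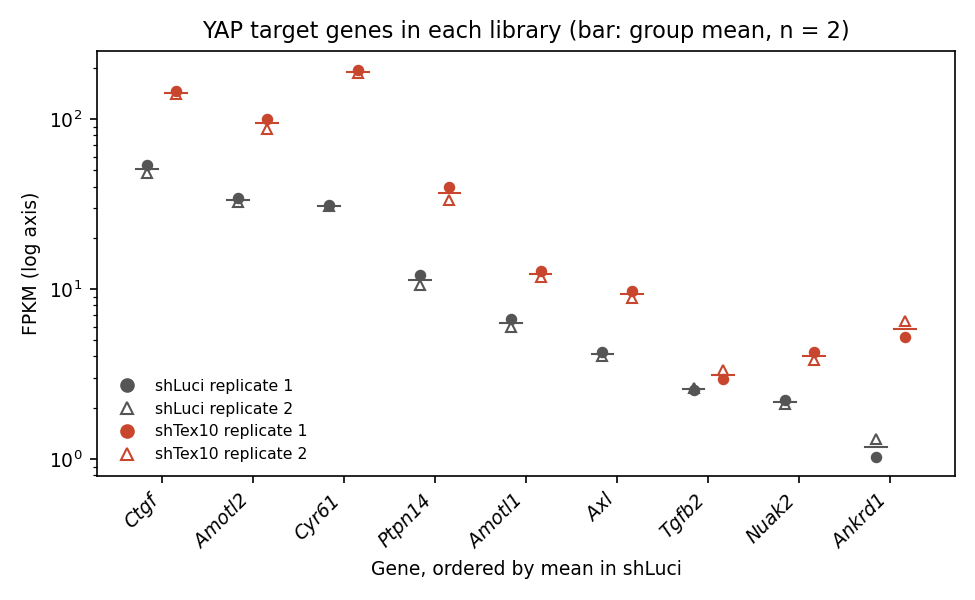
FPKM (log axis) of the 9 YAP target genes in each library, ordered by mean in shLuci; symbols are single libraries and horizontal bars group means (n = 2). Every shTex10 symbol lies above both shLuci symbols of the same gene, by the widest margin for Cyr61 (30.8 and 190.1 FPKM) and the narrowest for Tgfb2 (2.56 and 3.13 FPKM).

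The secreted products were led by Cyr61, which encodes a matrix protein of the CCN family that signals through integrins (XLOC_017924, mm9 chromosome 3, 145309934 to 145312949). It measured 31.0 and 30.5 FPKM in shLuci and 194 and 186 FPKM in shTex10. The 2 groups lay far apart, with each shTex10 library between 6.00 and 6.35 times each shLuci library. Its means were 30.8 ± 0.343 and 190.1 ± 5.41 FPKM (SD, n = 2 each), a difference of 2.59 (SE 0.08).

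Ctgf, the other classical CCN target of YAP, encodes connective tissue growth factor (XLOC_001826, mm9 chromosome 10, 24315247 to 24318488). Its values were 53.4 and 47.9 FPKM in shLuci against 146 and 139.7 FPKM in shTex10. The lowest ratio between single libraries was 2.61 and the highest 3.04, so the groups did not overlap. Its means were 50.7 ± 3.91 and 143 ± 4.38 FPKM (SD, n = 2 each), a difference of 1.48 (SE 0.10). Ctgf was the most abundant of the 9 in shLuci, and Cyr61 passed it in shTex10.

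Tgfb2 encodes a cytokine of the TGF-beta family (XLOC_001285, mm9 chromosome 1, 188446881 to 188530024). It stood at 2.53 and 2.59 FPKM in shLuci and 2.95 and 3.32 FPKM in shTex10. The gap between the groups was narrow, with single-library ratios of 1.14 to 1.31 and a difference of 0.21 (SE 0.10), the smallest of the 9. Its means were 2.56 ± 0.048 and 3.13 ± 0.262 FPKM (SD, n = 2 each). Quantile normalization left a difference of 0.09, and rescaling to the same named sum gave 0.38.

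Axl encodes a receptor tyrosine kinase whose ligand is GAS6 (XLOC_024826, mm9 chromosome 7, 26541518 to 26573752). Its level was 4.27 and 4.03 FPKM in shLuci and 9.76 and 8.80 FPKM in shTex10. Both shTex10 libraries were more than 2-fold above both shLuci libraries, at ratios of 2.06 to 2.42. Its means were 4.15 ± 0.167 and 9.28 ± 0.683 FPKM (SD, n = 2 each), a difference of 1.00 (SE 0.10).

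The inhibitors of YAP in the group were also higher. Amotl2, an angiomotin-like protein that binds YAP at junctions and in the cytoplasm (XLOC_028233, mm9 chromosome 9, 102620133 to 102635749), measured 34.4 and 32.3 FPKM in shLuci and 101 and 87.8 FPKM in shTex10. Its means were 33.3 ± 1.50 and 94.2 ± 9.02 FPKM (SD, n = 2 each), a ratio of 2.83 and a difference of 1.47 (SE 0.10). The shTex10 libraries differed from each other by far less than from the controls. Amotl1, its close relative (XLOC_028437, mm9 chromosome 9, 14346407 to 14480680), was lower in level and in ratio, at 6.65 and 6.00 FPKM against 12.7 and 11.8 FPKM, a ratio of means of 1.94 and a difference of 0.85 (SE 0.10).

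Ptpn14 encodes a non-receptor tyrosine phosphatase that binds YAP and promotes its retention outside the nucleus (XLOC_000636, mm9 chromosome 1, 191552087 to 191700577). Its values were 12.1 and 10.6 FPKM in shLuci and 39.6 and 33.4 FPKM in shTex10. The groups were separated at every pairing of libraries, by 2.75 to 3.75 times. Its means were 11.3 ± 1.11 and 36.5 ± 4.37 FPKM (SD, n = 2 each), a difference of 1.60 (SE 0.12). Relative to the mean its replicates spread more than those of Cyr61, with an SD of 9.76% in shLuci and 12.0% in shTex10 against 1.11% and 2.84%.

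Nuak2, a kinase of the AMPK-related family that acts on the actin cytoskeleton (XLOC_000389, mm9 chromosome 1, 134212701 to 134230065), measured 2.22 and 2.09 FPKM in shLuci and 4.22 and 3.82 FPKM in shTex10. The groups did not overlap, with single-library ratios of 1.72 to 2.02, and of the 9 genes only Tgfb2 had a lower ratio of means than its 1.87. Its means were 2.15 ± 0.0905 and 4.02 ± 0.285 FPKM (SD, n = 2 each), a difference of 0.67 (SE 0.10).

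Ankrd1 encodes a muscle ankyrin repeat protein found in the nucleus and the sarcomere (XLOC_014148, mm9 chromosome 19, 36186454 to 36194334). It was the lowest of the 9 in shLuci, at 1.03 and 1.31 FPKM, and reached 5.18 and 6.43 FPKM in shTex10. Its means were 1.17 ± 0.203 and 5.81 ± 0.878 FPKM (SD, n = 2 each), a difference of 1.65 (SE 0.13). Of the 9 genes only Cyr61 had a higher ratio of means than its 4.96, and its replicates spread most in percent of the mean (SD 17.3% in shLuci and 15.1% in shTex10).

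Levels differed widely among the 9. In shLuci the order from high to low was Ctgf, Amotl2, Cyr61, Ptpn14, Amotl1, Axl, Tgfb2, Nuak2 and Ankrd1. In shTex10 it was Cyr61, Ctgf, Amotl2, Ptpn14, Amotl1, Axl, Ankrd1, Nuak2 and Tgfb2. The 2 libraries of neighbouring genes did not overlap in either order. Summed over the 9 genes, FPKM was 148 and 137 in shLuci and 515 and 481 in shTex10, and Cyr61, Ctgf and Amotl2 made up 80.5% and 80.6% of this sum in shLuci and 85.5% and 86.0% in shTex10. Within each group, 7 of the 9 genes were higher in replicate 1 than in replicate 2.

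Markers of other cell types were read beside these values. Of 9 trophectoderm markers 7 were tested and all 7 rose, among them the keratin genes Krt8 and Krt18. Summed FPKM over the 9 was 259.7 to 269 in shLuci and 585 to 593 in shTex10, most of it from these keratin genes. Elf5, a defining trophoblast factor, stayed at or below 0.0800 FPKM, and Cdx2 measured 0.332 and 0.460 FPKM in shLuci and 1.49 and 1.43 FPKM in shTex10. Of 8 primitive endoderm markers 2 were tested and rose, Dab2 and Sparc. The sums were 119 to 128 against 231 to 238 FPKM, nearly all from Sparc (124 and 116 FPKM against 225 and 232 FPKM). Gata4, Gata6, Sox7, Sox17, Foxa2 and Pdgfra were below 1 FPKM in all libraries and untested. Among them Sox7 was lower in both shTex10 libraries, Sox17 and Pdgfra were higher, and the groups overlapped for Gata4, Gata6 and Foxa2. The summed fibroblast markers did not separate the groups, at 32.7 to 41.2 FPKM in shLuci and 35.7 to 47.4 FPKM in shTex10. Single markers went both ways: Col1a1, Col3a1, Pdgfrb and Lum were higher in both shTex10 libraries, and Col1a2 and Twist2 lower. Of the 5 tested, 0 rose and 1, Col1a2, fell, and Lum ranged from 0 to 0.0689 FPKM. Endothelial markers summed to 26.6 to 29.0 and 51.9 to 55.4 FPKM, nearly all from Pecam1 and Tek, both called higher, with Emcn listed at 0 in all libraries. Below 1 FPKM and untested, Kdr was lower in both shTex10 libraries than in both controls, and Cdh5 and Tie1 were higher. Of 7 mesoderm markers 1 was tested, Mesp2 (0.935 and 0.766 FPKM against 2.25 and 1.74 FPKM), which entered the test only through its shTex10 values. The mesoderm sums were 2.51 to 3.08 FPKM in shLuci and 3.50 to 4.21 FPKM in shTex10, while Mixl1, Tbx6 and Hand2 were each lower in both shTex10 libraries than in both controls and the groups overlapped for T, all untested. Of 8 ES cell markers 6 fell and 2 did not pass. Beside these marker counts, 19.8% of all genes tested were called higher and 31.8% lower. The part of these markers in the differences of the YAP target genes was not tested.

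Other known targets of YAP and TAZ were not all higher. A list of 31 further targets, from general knowledge, held 25 genes with a mean of at least 1 FPKM. Of these 25, 12 rose, 5 fell and 8 did not pass the test, beside 19.8% of all genes higher and 31.8% lower. Their median difference was 0.29, which is 0.43 above that of all genes. Edn1, the gene of endothelin, rose from 2.08 and 2.90 FPKM to 12.0 and 12.6 FPKM (limma, Benjamini-Hochberg adjusted p = 0.000378), and F3, the gene of tissue factor, from 7.48 and 8.54 FPKM to 18.6 and 20.4 FPKM (adjusted p = 0.000743 from limma). Both libraries of shTex10 were above both of shLuci for Edn1 and for F3, which the rule that named them required.

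The 5 that fell were Ccnd1, Fjx1, Marcks, Fstl1 and Dlc1. Ccnd1, the gene of cyclin D1, went from 63.0 and 56.3 FPKM to 28.0 and 27.0 FPKM (limma, Benjamini-Hochberg adjusted p = 0.000734), and Fjx1, a regulator in Fat and Dachsous signalling, from 9.07 and 6.44 FPKM to 4.27 and 3.09 FPKM (adjusted p = 0.0114 from limma). Rescaling by named sum, by median or by quantiles left 2 of this list lower, and leaving out shLuci replicate 1, shLuci replicate 2 or shTex10 replicate 1 left 3, 3 and 2. Gadd45a, a stress-response gene of the list, did not pass at 29.8 ± 0.0809 and 32.6 ± 0.560 FPKM (n = 2 each). Lats2, Wwc1, Ajuba and Gas6 also stand in a list below. The TEAD motif stood in the promoters of 5 of the 21 listed genes that have a window (23.8%), Edn1, Lats2, Crim1, Ajuba and Flna.

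**Figure D2:**
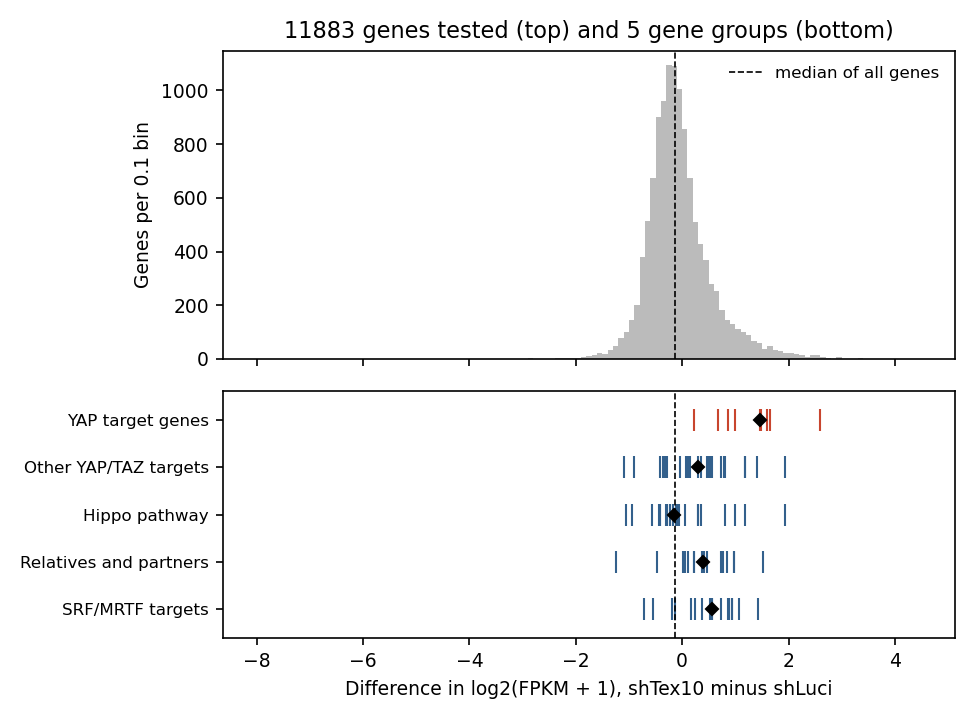
Top, number of genes per 0.1 bin of the difference in log2(FPKM + 1), shTex10 minus shLuci, over 11883 genes tested; bottom, the same difference for each tested gene of 5 groups (vertical ticks) with the group median (diamond), the dashed line being the median of all genes (-0.14). The 9 YAP target genes lie from 0.21 to 2.59, the other targets on both sides of 0, and the Hippo pathway genes around the median of all genes.

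Neither YAP nor TAZ was higher at the transcript level. Yap1 measured 56.6 and 49.4 FPKM in shLuci and 51.2 and 47.6 FPKM in shTex10, so the groups overlapped (difference -0.10, SE 0.10, adjusted p = 0.468 by limma with the Benjamini-Hochberg method). Its difference became 0.13 after rescaling by named sum and 0.12 under quantile normalization. Wwtr1 was at 12.2 and 12.7 FPKM against 9.70 and 10.0 FPKM, a fall (adjusted p = 0.0322 from limma) that was not called when any 1 library was left out (0.100 to 0.177) or under the other 4 scalings (0.0751 to 0.827). Yap1 transcript stood at several times the level of Wwtr1 in every library. Protein amount and phosphorylation, through which the pathway acts on YAP and TAZ, were not measured.

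The 4 TEAD genes moved in different directions. Tead2, the most abundant in shLuci, fell from 56.1 and 51.9 FPKM to 27.1 and 23.8 FPKM (limma, Benjamini-Hochberg adjusted p = 0.000971). Tead3 rose from 3.57 and 2.84 FPKM to 6.91 and 5.79 FPKM (adjusted p = 0.00486 from limma). Tead1 was at 24.9 and 24.7 FPKM against 31.1 and 30.2 FPKM, a rise (adjusted p = 0.0312 from limma) not called when any 1 library was left out (0.117 to 0.182). Tead4, which acts in trophectoderm, was at 7.85 and 6.31 FPKM against 5.29 and 4.66 FPKM (adjusted p = 0.0349 from limma), a call lost without shLuci replicate 1 (0.150), without shTex10 replicate 2 (0.0664), with no filter (0.0735) and after rescaling by named sum (0.224). Tead1 was thus the most abundant TEAD transcript in shTex10 and Tead2 in shLuci.

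Of 26 genes of the Hippo pathway, 22 were tested, and 6 rose, 7 fell and 9 did not pass, beside 19.8% of all genes higher and 31.8% lower. The median was -0.15 (-0.01 once that of all genes is subtracted). Rows of Mob1b and Taok2 are shared with another gene and were not used. Lats2, the kinase gene that is itself a YAP target, rose from 2.92 and 2.72 FPKM to 7.71 and 7.73 FPKM (limma, Benjamini-Hochberg adjusted p = 0.000463), while Lats1 measured 4.64 and 5.01 FPKM against 4.24 and 4.97 FPKM and overlapped between the groups. Vgll4, whose protein competes with YAP for TEAD, rose from 3.52 and 4.81 FPKM to 20.4 and 16.9 FPKM (adjusted p = 0.000578 from limma). Frmd6, an upstream activator, rose from 7.23 and 7.35 FPKM to 15.5 and 15.6 FPKM (adjusted p = 0.000688 from limma).

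In the other direction, Nf2, the gene of the upstream activator merlin, fell from 54.7 and 53.5 FPKM to 27.5 FPKM in each shTex10 library (limma, Benjamini-Hochberg adjusted p = 0.000704). Limd1, a LATS-binding scaffold, fell from 4.88 and 5.08 FPKM to 3.00 and 3.12 FPKM (adjusted p = 0.00456 from limma), and the kinase gene Stk4 from 28.6 and 29.2 FPKM to 21.2 and 21.4 FPKM (adjusted p = 0.00929 from limma). Stk4 lost its call after rescaling by named sum (0.0934). The lower count of this list was 3 after that rescaling and 4 without shLuci replicate 1. With the replicate number as a block it was 11.

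**Figure D3:**
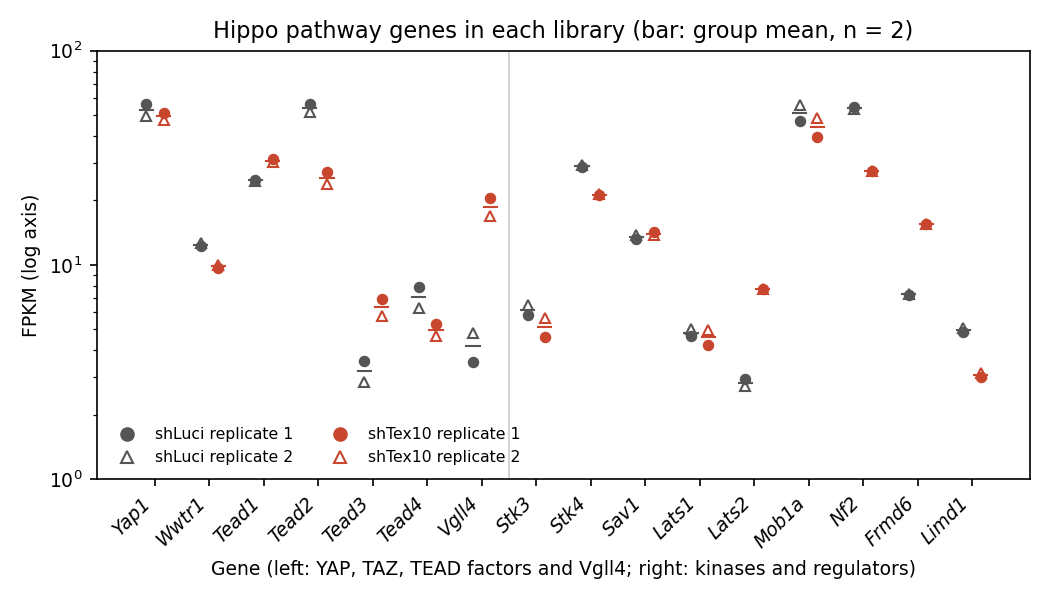
FPKM (log axis) of 16 Hippo pathway genes in each library; symbols are single libraries and horizontal bars group means (n = 2), with YAP, TAZ, TEAD factors and Vgll4 left of the grey line and kinases and regulators right of it. Vgll4, Lats2, Frmd6 and Tead3 lie higher in shTex10, Tead2, Nf2 and Limd1 lower, and the Yap1 libraries overlap.

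Relatives, receptors and ligands of the 9 genes were read to see how widely each family moved. Of 23 listed 16 were tested, and 9 rose, 2 fell and 5 did not pass, beside 19.8% of all genes higher and 31.8% lower. The median was 0.39 (0.53 once that of all genes is subtracted). One of the 9 that rose, Tgfbr3 (0.591 and 0.668 FPKM against 1.75 and 1.76 FPKM), entered the test only through its shTex10 values. Ankrd23 shares its row with another gene and was not used.

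Among the CCN genes, Cyr61 and Ctgf stood apart in level: Wisp1 was at 3.48 and 3.24 FPKM against 3.70 and 3.74 FPKM and did not pass (limma, Benjamini-Hochberg adjusted p = 0.336). Nov, Wisp2 and Wisp3 stayed below 1 FPKM in all libraries and were not tested, with each higher in both shTex10 libraries than in both controls. Of the integrin genes for receptors of CCN proteins, Itgav rose from 11.5 ± 0.193 to 16.2 ± 0.812 FPKM and Itgb5 from 16.8 ± 1.11 to 22.2 ± 1.41 FPKM (n = 2 each), while Itgb3 did not pass at 2.15 ± 0.157 and 2.20 ± 0.0246 FPKM.

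Of the receptors related to Axl, Tyro3 fell from 21.1 and 17.6 FPKM to 8.42 and 6.84 FPKM (limma, Benjamini-Hochberg adjusted p = 0.00145), and Mertk stayed below 1 FPKM with overlapping groups and was not tested. In shLuci Tyro3 stood above Axl, and in shTex10 Axl, at 9.76 and 8.80 FPKM, stood above Tyro3. The ligand genes both rose: Gas6 from 3.95 ± 0.142 to 7.24 ± 0.363 FPKM and Pros1 from 18.6 ± 2.82 to 37.7 ± 4.60 FPKM (n = 2 each).

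In the TGF-beta family, Tgfb1 fell from 3.75 and 3.22 FPKM to 2.57 and 1.95 FPKM (limma, Benjamini-Hochberg adjusted p = 0.0283), a call lost with no filter (0.0650), without shLuci replicate 1 (0.0528), without shTex10 replicate 2 (0.0748) and after rescaling by named sum (0.143). Tgfb3 stayed below 1 FPKM. The coreceptor gene Eng rose from 12.9 and 12.1 FPKM to 41.1 and 34.9 FPKM (adjusted p = 0.000427 from limma), whereas Tgfbr1 and Tgfbr2 did not pass.

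Relatives of the angiomotin-like genes, of Ptpn14 and of Nuak2 rose as well. Amot, the founding angiomotin, rose from 6.31 and 6.06 FPKM to 8.53 and 8.49 FPKM (limma, Benjamini-Hochberg adjusted p = 0.0128). Ptpn21, the paralogue of Ptpn14, rose from 3.91 and 3.74 FPKM to 7.69 and 7.71 FPKM (adjusted p = 0.00120 from limma), and Nuak1 from 5.30 and 4.64 FPKM to 11.4 and 10.1 FPKM (adjusted p = 0.00152 from limma). Each had both shTex10 libraries above both controls, which the naming rule required of Ptpn21 and Nuak1. Ankrd2, a relative of Ankrd1, stayed below 1 FPKM and was not tested, with both shTex10 libraries above both controls.

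**Figure D4:**
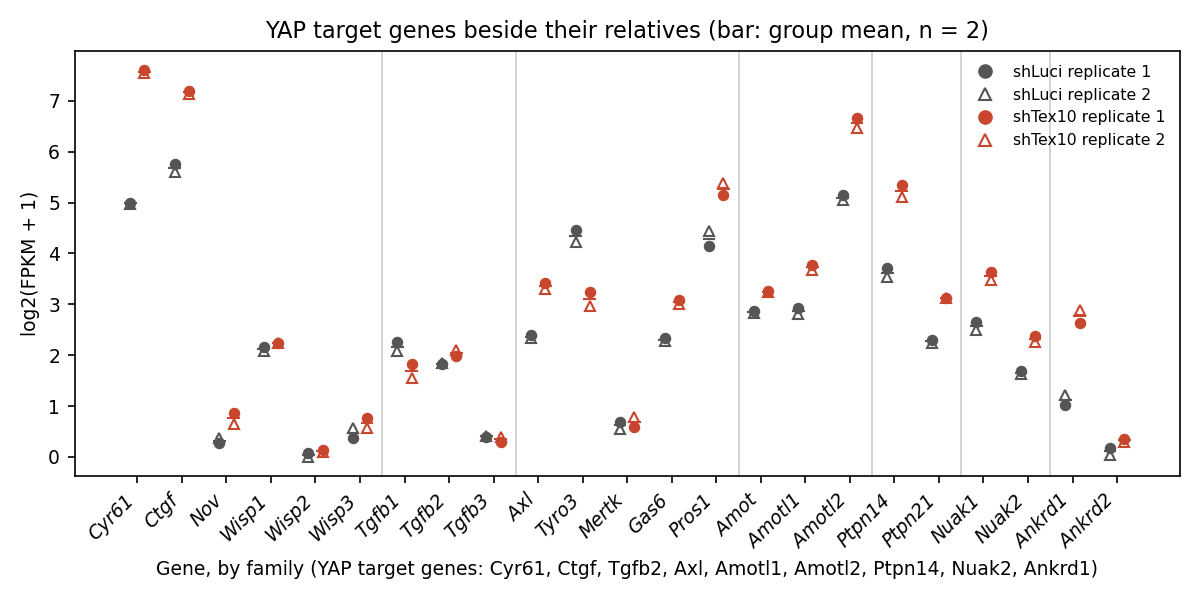
log2(FPKM + 1) of the YAP target genes and their relatives in each library, grouped by family; symbols are single libraries and horizontal bars group means (n = 2). Tyro3 and Tgfb1 lie lower in shTex10, whereas both Nuak genes, both Ptpn genes and the 3 angiomotin genes lie higher.

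Cyr61, Ctgf and Ankrd1 are also targets of SRF and its actin-regulated coactivators, the MRTF proteins, so a list of SRF and MRTF targets was read beside them. Of 18 listed 17 were tested, and 11 rose, 2 fell and 4 did not pass, beside 19.8% of all genes higher and 31.8% lower. The median was 0.56 (0.70 once that of all genes is subtracted). Cald1, the gene of the actin-binding protein caldesmon, rose from 36.0 and 39.8 FPKM to 97.5 and 111 FPKM (limma, Benjamini-Hochberg adjusted p = 0.000440), and the smooth muscle gene Tagln from 82.7 and 81.3 FPKM to 138 and 136 FPKM (adjusted p = 0.00146 from limma). Tpm1, a tropomyosin gene, rose from 142 and 169 FPKM to 302 and 354 FPKM (adjusted p = 0.00184 from limma), and Cnn1, the gene of calponin, from 3.84 and 4.42 FPKM to 7.74 and 8.79 FPKM (adjusted p = 0.00235 from limma). Srf itself did not pass, with groups that overlapped (19.5 ± 4.18 and 16.8 ± 3.16 FPKM, n = 2 each).

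The 2 that fell were the immediate early gene Egr1, from 19.9 and 18.6 FPKM to 11.3 and 11.4 FPKM (limma, Benjamini-Hochberg adjusted p = 0.00209), and Filip1l. Filip1l has 2 rows at the same locus that go in opposite directions, so its fall is uncertain. One row was at 6289.6 and 6407 FPKM in shLuci and 4659 and 4077 FPKM in shTex10, and sets the sum, and the other was at 2.12 and 2.25 FPKM against 3.15 and 3.69 FPKM. It lost its call with no filter (0.0647), after rescaling by named sum (0.0704) and under quantile normalization (0.710).

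Among genes in none of these lists, the 3 whose 4 library values lay closest to the median profile of the 9 YAP target genes were the row shared by Lss and Mcm3ap, Ube2l6 and Nav2. Their Euclidean distances, over 4 libraries of values centred on each gene's mean, were 0.0352, 0.0409 and 0.0526 on the log2 scale. With 2 groups of 2 libraries, this measure mostly records a like difference between the groups.

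Rows without a gene name were read within 20 kb of the 9 loci, and lay near 3 of them. Cyr61 lies on the minus strand, and a row of 1752 bp (XLOC_017355, mm9 chromosome 3, 145313289 to 145315041) starts 340 bp beyond its upstream end. It measured 0.221 and 0.240 FPKM in shLuci and 1.96 and 2.19 FPKM in shTex10. A row 14.1 kb downstream (XLOC_017923) was at 0.207 and 0.271 FPKM against 1.06 and 1.11 FPKM, so both were higher in both shTex10 libraries, as Cyr61 was. One more row near Cyr61, of 164 bp, spread from 0 to 38.3 FPKM within shTex10. Near Amotl1 a row 2.67 kb away was at 0.0294 and 0.156 FPKM against 0.563 and 0.479 FPKM. Near Tgfb2 the 2 rows lay lower in shTex10, at 0.605 and 0.575 FPKM against 0.362 and 0.208 FPKM for one and 1.20 and 0.635 FPKM against 0.597 and 0.325 FPKM for the other. These differences were not tested.

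The direction of the 9 genes was the same under each of the 5 scalings of the libraries shown in the plot of scalings. Their median difference was 1.47 as deposited and 1.69 after rescaling by named sum. Once the median of all genes is subtracted it ran from 1.48 to 1.67 over all 13 alternatives, of which the filter at a mean of 5 FPKM holds only 6 of the genes. With all rows brought to one sum 5 of the 9 were called higher, beside 5.55% of all genes.

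**Figure D5:**
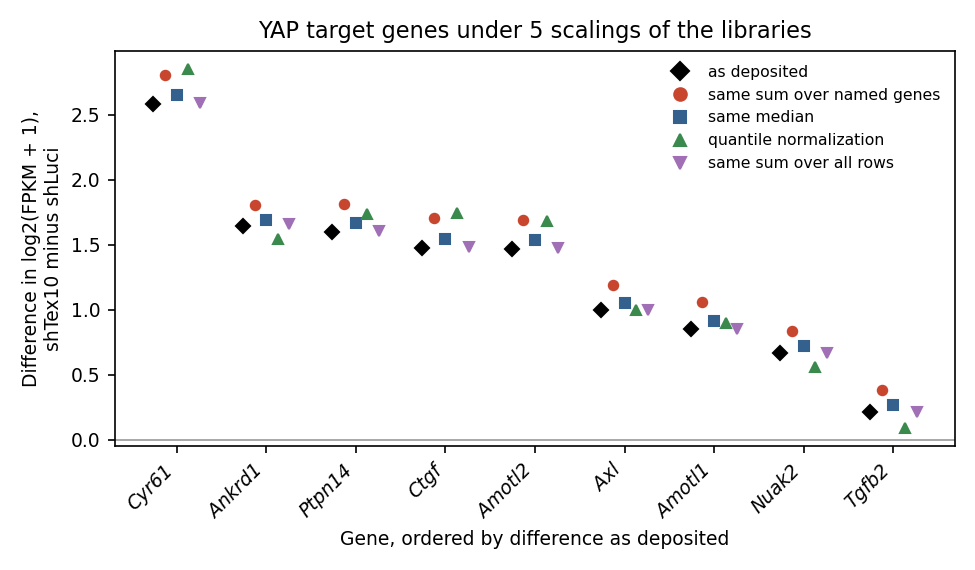
Difference in log2(FPKM + 1), shTex10 minus shLuci, of the 9 YAP target genes under 5 scalings of the libraries (symbols), ordered by the difference as deposited. The values lie above 0, from 0.09 for Tgfb2 under quantile normalization to 2.86 for Cyr61 under the same setting.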

How the data were processed

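Poly(A) RNA from 4 libraries of CCE ES cells, 2 per hairpin, was read as 100-bp single ends, per the labels' protocols. The authors deposited FPKM values, 1 table per library, with 30640 rows each, of which 23311 carry a gene name. Cufflinks 2.1.1, TopHat2 2.0.10, Bowtie2 2.1.0 and the build mm9 appear in the submitters' processing notes, while options, annotation and strand use are not given in the sources. FPKM holds no read count, so no counting interval is given. Unnamed rows took 56.3% to 71.6% of summed FPKM and stayed out of the fit.

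Rows sharing a name were summed, giving 22739 genes. Genes with a mean of at least 1 FPKM (11883) were fitted with limma 3.58.1 (R 4.3.3) to log2(FPKM + 1) (eBayes with trend, 2 groups, no block), with Benjamini-Hochberg adjustment over all of them and a threshold of 0.05. The script was tested on simulated data. The YAP target genes, the 4 gene lists and the 6 marker lists were chosen with earlier results of these data known. Named genes are the 9 genes, Tex10, Yap1, Wwtr1, the TEAD genes, up to 4 genes per list and direction with the smallest p among those called with groups that do not overlap, and the 3 closest profiles. One gene that the rule names is not reported here. Further relatives, markers and exceptions were named after their values were seen. Loci are given as in the tables (mm9), and promoter sequences come from RefSeq (GRCm38.p6), with no conversion between builds. Alternatives were a pseudocount of 0.1, no filter, a mean of at least 5 FPKM, 4 other scalings, a block for the replicate number, only the highest row of each name, and each library left out in turn.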

Additional observations from a re-analysis of the deposited data

How the results depend on the processing

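The 9 YAP target genes kept their direction under all 13 alternatives, except that the filter at 5 FPKM removed Tgfb2, Nuak2 and Ankrd1. Each of the 9 has 1 row, and both its shTex10 libraries lie above both controls. Only the 4 other scalings could therefore have reversed a direction. Requiring a mean of 5 FPKM left 8542 genes in the test, 1292 of them called higher. It took Tgfb1 out of the test, which left 1 of the relatives lower. With no filter 1 of the relatives and 1 SRF target were lower. Rescaling by named sum gave 1901 of all genes lower, 2 other targets, 3 Hippo genes, 1 relative and 1 SRF target lower, and a median of 1.69 for the 9 genes. Median scaling left 2 other targets lower, and quantile normalization 2 other targets and 1 SRF target. Rescaling over all rows left 662 of all genes higher and 239 lower, 5 of the 9 genes higher, and 3 other targets, 2 Hippo genes, 1 relative and 1 SRF target higher with 0 lower in each of these 4 lists. The cause of these shifts was not tested. Yap1 changed sign to 0.13 (named sum) and 0.12 (quantiles).

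With the replicate number as a block, 5709 of all genes, 11 Hippo genes and 4 SRF targets were lower. Deviations of same-numbered libraries from their group means correlated at 0.33 over 11883 genes, but with 2 pairs and no label behind the numbers, the libraries share only a number.

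Leaving out 1 library, and taking the lone library of a group to vary like the other group, gave 2109 to 2265 of all genes higher and 3210 to 3499 lower, 8 of the 9 genes higher and 0 lower each time, and a median of 1.37 to 1.51. The lists gave 10 to 14 higher and 2 to 5 lower (other targets), 4 to 6 and 4 to 6 (Hippo), 7 to 9 and 1 to 2 (relatives), and 10 higher with 2 lower each time (SRF). Depth is unknown, which limits what can be said of genes near 1 FPKM such as Ankrd1 and Nuak2.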
